A study of Mus musculus with 6 samples.

Results

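The TRIM (tripartite motif) family was taken as every protein-coding gene in the expression table whose symbol was Trim followed by a number, with or without further letters. The rule found 68 genes of the 54532 listed, on 15 chromosomes, 16 of them on chromosome 7. TRIM proteins are built from a RING finger, which some members lack, B-boxes and a coiled coil, and most are E3 ubiquitin ligases whose C-terminal domain selects the protein to be modified. In macrophages, members of the family are best known for tuning the sensing of viral nucleic acids and the NF-κB and type I interferon pathways, and a number of them are interferon-induced genes. Others regulate transcription, the cytoskeleton or protein turnover in muscle and nerve.

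RNA sequencing had been performed on mouse bone marrow-derived macrophages (BMDMs) after co-culture with ID8, a mouse ovarian cancer cell line. Before co-culture, ID8 cells were exposed to 40 µM cisplatin, a DNA-crosslinking platinum drug (3 libraries, the cisplatin group), or to phosphate-buffered saline (3 libraries, the PBS group). The comparison therefore addressed how the cells recovered from co-culture differed with the pretreatment of the cancer cells, and neither group lacked ID8 cells. By the methods, monocytes from the marrow of C57BL/6 mice several weeks old were cultured in both groups and collected after co-culture, and the labels name no genetic change in either group. The methods speak of biological replicates but do not state whether these 3 libraries per group came from separate cultures or animals, so the p-values measure only the spread between these libraries, part of which may be technical.

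Each library held 15776238 to 17924686 reads assigned to genes. The Pearson correlation of log2(FPKM + 1) between libraries was 0.984 to 0.989 within a group and 0.871 to 0.877 between groups. FPKM are fragments per kilobase of gene, scaled by a read total for each library. The summed FPKM of 10 macrophage markers was 4239 to 4391 with cisplatin and 1659 to 1671 with PBS. By the adjusted p all 10 were higher, and 4 were called higher, of which Mrc1 and Mertk passed the filter through the cisplatin libraries alone. Lyz2, the macrophage lysozyme gene, made up most of that sum, at a mean of 3459 FPKM with cisplatin and 1161 with PBS. The sum of 13 ID8 and mesothelial markers, keratins among them, was 237 to 258 with cisplatin and 1289 to 1391 with PBS, with 7 of the 10 tested called lower, while Cdh1, the E-cadherin gene, was higher by the adjusted p at 5.41 FPKM with cisplatin and 3.24 with PBS. The sum of 8 lymphocyte markers was 269 to 275 with cisplatin and 114 to 123 with PBS, with 3 of the 6 tested called higher, and that of 4 Y-linked genes was 41.6 to 42.8 with cisplatin and 19.5 to 22.7 with PBS. No marker of these lists was at 0 in every library. The groups did not overlap in any of these sums, and the part of these differences in the TRIM results was not tested. In bulk samples, fewer cells of a type and less RNA per cell cannot be told apart.

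Most of the TRIM genes present in these cells were expressed at a lower level in the cisplatin group. Of the 68 members, 37 passed the filter of at least 1 FPKM in 3 libraries, and the same 37 had a mean of at least 1 FPKM over all 6 libraries. Past an adjusted p of 0.05 and a log2 fold change of 1 in the limma test, 8 of the 37 (21.6%) were called lower, where 11.3% of the 13441 genes tested, and 12.0% of the protein-coding ones, were called lower. None was called higher, where 4.67% of all tested genes and 4.16% of the protein-coding ones were. The called members include Trim2 and Trim6, which passed the filter through the PBS libraries alone, and the count was 5 of 34 (14.7%) without PBS replicate 2 and 5 of 35 (14.3%) without PBS replicate 3, where 9.03% and 8.96% of all tested genes were called lower. With quantile normalisation it was 4 of 37 (10.8%), where 9.6% of all tested genes were. By the limma adjusted p alone, 25 members (67.6%) were lower and 8 were higher, and the unadjusted p gave the same 25 and 8. The corresponding shares of all tested genes were 35.1% lower and 32.9% higher. The 3 cisplatin libraries lay wholly below the 3 PBS libraries for 25 members and wholly above them for 8, where 37.2% and 35.2% of all tested genes did so. Log2 fold changes of the tested members ran from -1.81 to 0.85 with a median of -0.41, against a median of -0.0011 over all tested genes. The family median was -0.035 over 64 members with no filter (all genes 0.013) and -1.33 with scaling to the Y-linked genes (all genes -0.81). The test by limma voom on the recovered read counts called 7 members lower and 1, Trim13, higher, with 13.9% of all tested genes lower and 9.13% higher by that test.

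**Figure D1:**
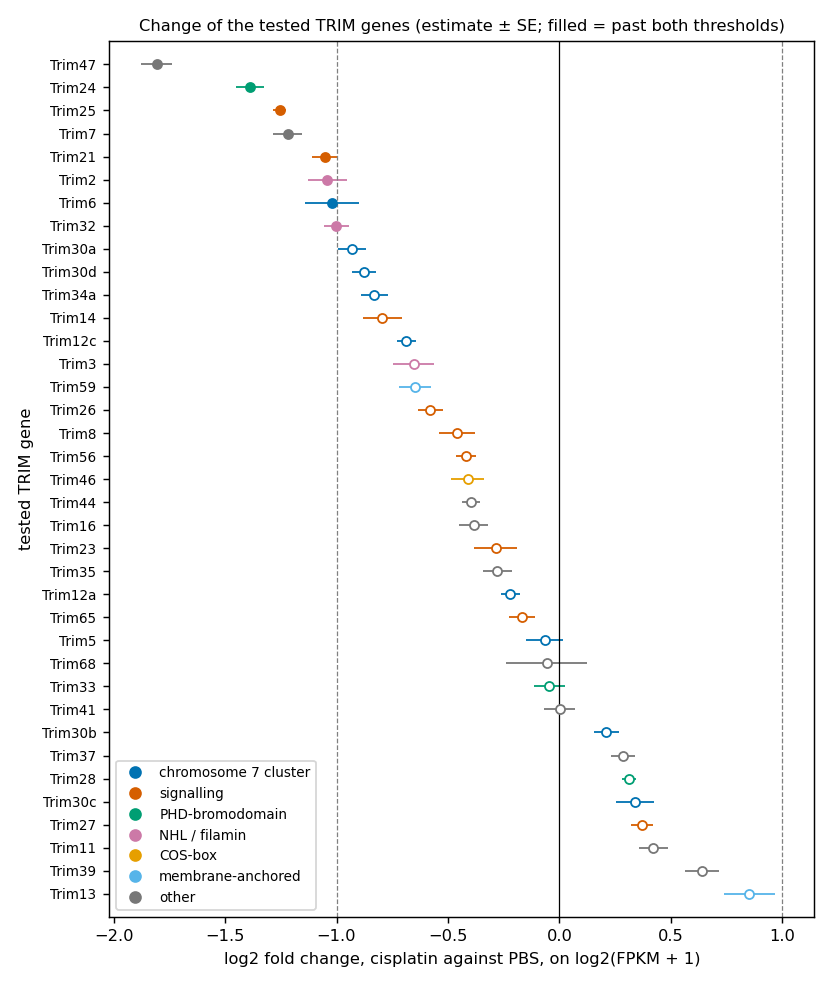
The log2 fold change of each of the 37 tested TRIM genes on log2(FPKM + 1), cisplatin against PBS, is drawn with its standard error and coloured by subgroup. The 8 filled points lie at or beyond -1, and no point reaches 1.

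The FPKM summed over all 68 members was 708, 716 and 705 in the PBS libraries and 495, 488 and 489 in the cisplatin libraries. The sum was thus 1.45-fold higher with PBS, and the group ranges lay far apart. Trim30a and Trim25 together made up 27.1% to 27.9% of this sum in the PBS libraries and 18.2% to 19.5% in the cisplatin libraries. The number of members at 1 FPKM or more hardly differed, with 36 to 37 per PBS library and 35 in each cisplatin library. By mean FPKM over the 6 libraries, the 5 most abundant members were Trim30a, Trim25, Trim28, Trim8 and Trim30d in that order. Together they held 46.4% to 46.9% of the family sum with PBS and 42.1% to 42.4% with cisplatin.

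Among the members known for antiviral and inflammatory signalling, 9 of 11 were tested. Of these, 8 were lower by the adjusted p, 2 were called lower, and Trim27 alone was higher by the adjusted p, where 35.1% of all tested genes were lower by the adjusted p and 11.3% were called lower. Trim25 (ENSMUSG00000000275, chr11:88999376-89020293), the ligase that attaches ubiquitin to the RNA sensor RIG-I, was at 94.4, 96.3 and 95.6 FPKM with PBS and at 39.0, 39.8 and 39.5 FPKM with cisplatin. All 3 cisplatin libraries were below all 3 PBS libraries, and the spread within each group was under 1 FPKM (SD, n = 3). The log2 fold change was -1.25 ± 0.029 (SE, limma adjusted p = 1.4e-07). Trim21 (ENSMUSG00000030966, chr7:102557921-102565486), the cytosolic receptor for antibody-coated virus, was at 15.6, 15.4 and 14.9 FPKM with PBS and at 6.38, 7.44 and 6.83 FPKM with cisplatin. The groups did not overlap, and the log2 fold change was -1.05 ± 0.059 (SE, limma adjusted p = 6.6e-06), which became -0.97 and was not called with quantile normalisation. Neither gene overlapped another annotated gene.

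Trim8, a ligase of the TNF and NF-κB pathway and the fourth most abundant member, was at 44.6, 39.9 and 45.0 FPKM with PBS and at 28.1, 34.1 and 31.3 FPKM with cisplatin. The difference was larger than the spread in both groups, but its log2 fold change of -0.46 ± 0.079 (SE, limma adjusted p = 0.0018) did not reach the fold threshold. Trim14, an adaptor of the mitochondrial antiviral signal that lacks a RING finger, averaged 8.53 ± 0.775 FPKM with PBS and 4.5 ± 0.458 with cisplatin (SD, n = 3), a log2 fold change of -0.79. It overlaps Nans on the other strand and shares 29.5% of its 50-base words with that gene, so its value is less certain. Trim26 fell by 0.58, Trim56, which acts on the STING pathway, by 0.42, Trim23 by 0.29 and Trim65, a ligase for the RNA sensor MDA5, by 0.17 on the log2 scale. Trim27 went the other way, from 8.26 ± 0.0597 FPKM with PBS to 11 ± 0.581 with cisplatin, a log2 fold change of 0.37 ± 0.050 (SE, limma adjusted p = 0.00052). Trim31 and Trim38 were not tested and did not exceed 0.176 FPKM in any library.

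The Trim5-like genes lie in a cluster of 289 kb on chromosome 7 of GRCm38, chr7:104218793-104507849. They are the mouse relatives of the primate retroviral restriction factor TRIM5α and, in the case of Trim30a, a gene known as an inhibitor of Toll-like receptor signalling to NF-κB. Of its 10 members, 9 were tested, 6 were lower by the adjusted p, 2 were higher, and Trim6 alone was called. That single call is 11.1% of the tested cluster genes, against 11.3% of all tested genes. By the adjusted p, the 6 lower are 66.7% of the tested cluster genes, where 35.1% of all tested genes were lower and 32.9% higher. The median log2 fold change of the 9 was -0.69.

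Trim30a was at 97.5, 103.5 and 99.8 FPKM with PBS and at 57.6, 49.9 and 49.3 FPKM with cisplatin. It was the most abundant member of the family with PBS but fell below Trim28 in every cisplatin library. Its log2 fold change was -0.93 ± 0.064 (SE, limma adjusted p = 1.8e-05), short of the fold threshold, and reached -1.0 and was called without cisplatin replicate 1. Trim30d was at 40.9, 42.6 and 40.5 FPKM with PBS and at 23.3, 20.5 and 22.5 FPKM with cisplatin, a log2 fold change of -0.88 ± 0.053. Both genes were lower in all 3 cisplatin libraries. They share a small part of their sequence, 5.98% of the 50-base words of Trim30a being found in Trim30d and 6.39% of those of Trim30d in Trim30a.

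The neighbouring paralogues Trim30b and Trim30c moved in the opposite direction. Trim30b was at 7.05, 6.47 and 6.33 FPKM with PBS and at 7.63, 7.65 and 8.14 FPKM with cisplatin. Trim30c was at 3.82, 3.82 and 3.08 FPKM with PBS and at 5.0, 4.83 and 4.48 FPKM with cisplatin. Neither gene's groups overlapped, and the log2 fold changes were 0.21 ± 0.057 for Trim30b (SE, limma adjusted p = 0.014) and 0.34 ± 0.085 for Trim30c (SE, limma adjusted p = 0.010). Both directions turned to -0.65 and -0.45 when libraries were scaled to the 4 Y-linked genes, a scaling under which all tested genes had a median of -0.81.

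Trim6, which assembles the free ubiquitin chains used by the kinase IKKε, lies at the start of the cluster (ENSMUSG00000072244, chr7:104218793-104235152). It was low throughout, at 2.42, 3.06 and 2.23 FPKM with PBS and at 0.805, 0.585 and 0.878 FPKM with cisplatin. The groups did not overlap, and the log2 fold change was -1.02 ± 0.12 (SE, limma adjusted p = 0.00027). It passed the filter through the PBS libraries alone, so that leaving out any PBS library removed it from the test, and it was not called without cisplatin replicate 2 (-0.95) or with quantile normalisation (-0.84), while voom on the read counts called it at -1.67. Trim34a was at 17.2, 18.0 and 17.7 FPKM with PBS and at 9.30, 8.83 and 10.3 FPKM with cisplatin, a log2 fold change of -0.83 ± 0.060. The cisplatin libraries were again the lower ones. However, 59.7% of the 50-base words of Trim34a are also in other genes. Its largest share, 39.8%, is with Trim34b, which was not tested at 0.0916 to 0.729 FPKM.

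Trim12c was at 38.8, 38.3 and 38.8 FPKM with PBS and at 24.7, 23.9 and 22.4 FPKM with cisplatin, a log2 fold change of -0.69 ± 0.043. Trim12a was at 12.4, 12.7 and 12.1 FPKM with PBS and at 10.4, 10.8 and 10.3 FPKM with cisplatin, a smaller log2 fold change of -0.22 ± 0.042 (SE, limma adjusted p = 0.0029). The groups did not overlap for either gene. Trim5 was at 5.21, 5.79 and 4.84 FPKM with PBS and at 5.32, 4.51 and 5.17 FPKM with cisplatin. Its groups overlapped, and its log2 fold change of -0.07 had an interval of -0.23 to 0.10 at 2 SE on either side. Trim5 and Trim12c share 23.5% and 24.2% of their 50-base words with each other, so reads of these genes could have been divided between them. With all other genes together, Trim5 shares 36.6% and Trim12c 33.7%.

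**Figure D2:**
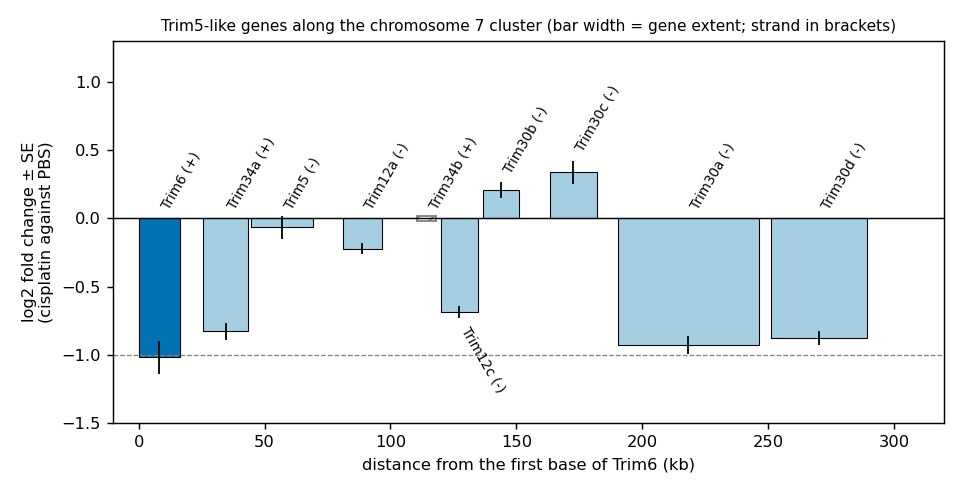
The log2 fold change with its standard error is drawn for each Trim5-like gene at its distance in kb from the first base of Trim6, with bar width as the extent of the gene and the hatched box marking Trim34b, which was not tested. Trim6, Trim34a, Trim12c, Trim30a and Trim30d reach -0.69 or lower, while Trim30b and Trim30c, between Trim12c and Trim30a, lie above 0.

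The unequal change of neighbouring genes can also be given as ratios taken within each library, which no scaling factor of a library alters. These ratios come from the same FPKM values as the fold changes, so they are not a second observation. The pairs were chosen after their values had been seen and are given as a description. The ratio of Trim30a to Trim30b was 13.8, 16 and 15.8 in the PBS libraries and 7.55, 6.53 and 6.06 in the cisplatin libraries. That of Trim30d to Trim30c averaged 11.7 ± 1.29 with PBS and 4.64 ± 0.384 with cisplatin (SD, n = 3). The ratio of Trim12c to Trim12a was closer between the groups, at 3.12 ± 0.0975 with PBS and 2.25 ± 0.106 with cisplatin. For each of these pairs every PBS library was above every cisplatin library. The same held for Trim34a over Trim5, at 3.35 ± 0.281 with PBS and 1.90 ± 0.135 with cisplatin. Both of these genes share much of their sequence with other genes, so this ratio is less certain.

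Promoter sequences from RefSeq on GRCm38.p6, from 250 bases before to 50 bases after a transcript start, were found for 53 of the 68 members. They were searched on both strands for GAAANNGAAA, the core of the interferon-stimulated response element (ISRE). Of the 53 members, 9 (17.0%) held a match, where 3.99% of the 27025 genes and 3.44% of the 32851 promoters in the table did. Trim34a, Trim5, Trim12a, Trim12c, Trim30a and Trim30d belong to the chromosome 7 cluster, so most matches came from that group of related genes. Outside the cluster only Trim21, Trim2 and Trim26 held a match. The matching windows, shown so that neighbouring genes can be compared letter by letter, were those of Trim21 (chr7:102565450-102565479), Trim2 (chr3:84212791-84212820), Trim5 (chr7:104288136-104288165), Trim12a (chr7:104315466-104315495), Trim12c (chr7:104353359-104353388), Trim30a (chr7:104465210-104465239) and Trim30d (chr7:104507871-104507900), all on the minus strand, and of Trim34a (chr7:104244457-104244486) and Trim26 (chr17:36836976-36837005) on the plus strand. Each is printed 5′ to 3′ on the strand of its gene with the 10 matching bases in capitals.
Trim21: cctctgagagGAAACTGAAAgtgaaatttg
Trim2: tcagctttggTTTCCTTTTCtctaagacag
Trim34a: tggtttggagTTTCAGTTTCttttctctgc
Trim5: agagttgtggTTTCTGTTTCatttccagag
Trim12a: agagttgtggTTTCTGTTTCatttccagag
Trim12c: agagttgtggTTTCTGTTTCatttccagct
Trim30a: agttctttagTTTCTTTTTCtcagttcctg
Trim30d: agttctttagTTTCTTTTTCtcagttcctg
Trim26: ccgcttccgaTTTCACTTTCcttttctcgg

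The windows of Trim5 and Trim12a were identical over all 30 bases and that of Trim12c matched them at 28, and the log2 fold changes of these genes were -0.07, -0.22 and -0.69. The windows of Trim30a and Trim30d were also identical over 30 bases, and the log2 fold changes of these genes were -0.93 and -0.88. The part of these letters in the changes was not tested. A second annotated start of Trim30a held the same 10 bases, and in Trim21 and Trim26 a second match overlapped the first. All 9 members with a match, most of them in the chromosome 7 cluster, were tested. Of these, 2 were called lower and 8 were lower by the adjusted p, with a median log2 fold change of -0.83. Among the 20 tested members whose promoters held no match, 6 were called lower and 11 were lower by the adjusted p, with a median of -0.34. Over all tested genes, 21.1% of the 388 with a match and 10.9% of the 8952 without one were called lower. By the adjusted p, 172 of the 388 and 3362 of the 8952 were lower, with median log2 fold changes of -0.10 and -0.016. Of the called members, only Trim21 and Trim2 held a match. Trim25, Trim47, Trim24, Trim7, Trim6 and Trim32 were called lower with no such letters in these windows. A looser letter pattern for STAT dimers, TTCNNNGAA, was present in the promoters of 6 members (11.3%) and in those of 9.55% of all genes, near the share of the family. No promoter entry was found for Trim3, Trim8, Trim11, Trim14, Trim16, Trim17, Trim29, Trim33, Trim35, Trim36, Trim43b, Trim43c, Trim50, Trim55 and Trim65.

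The PHD-bromodomain members are nuclear regulators of transcription. Trim24 (ENSMUSG00000029833, chr6:37870811-37966296), a cofactor of nuclear receptors, was at 10.4, 10.8 and 10.2 FPKM with PBS and at 3.59, 3.52 and 3.08 FPKM with cisplatin. Every cisplatin library was below every PBS library, and the PBS mean was 3.09-fold that of the cisplatin group, with a log2 fold change of -1.39 ± 0.062 (SE, limma adjusted p = 2.3e-06). Trim28, the corepressor of KRAB zinc finger proteins, was at 50.9, 50.2 and 49.4 FPKM with PBS and at 62.2, 62.0 and 63.3 FPKM with cisplatin. It was thus higher in all 3 cisplatin libraries, with a log2 fold change of 0.31 ± 0.031 (SE, limma adjusted p = 1.0e-04), which turned to -0.65 under the scaling to Y-linked genes. Trim33, a regulator of SMAD signalling, averaged 9.80 ± 0.776 FPKM with PBS and 9.46 ± 0.565 with cisplatin (SD, n = 3). Its groups overlapped, and the log2 fold change of -0.04 had an interval of -0.18 to 0.09 at 2 SE on either side. The within-library ratio of Trim24 to Trim33 was 1.16, 1.10 and 0.971 with PBS and 0.356, 0.377 and 0.344 with cisplatin, and all the cisplatin ratios were the lower ones. Trim66 did not exceed 0.0697 FPKM in any library and was not tested.

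All 3 tested members with NHL or filamin repeats were lower by the adjusted p and 2 of them were called, where 35.1% of all tested genes were lower and 11.3% were called lower. Trim32 (ENSMUSG00000051675, chr4:65604986-65616238), a ligase mutated in limb-girdle muscular dystrophy, was at 15.5, 17.4 and 16.6 FPKM with PBS and at 7.98, 7.85 and 7.43 FPKM with cisplatin. The groups were well apart, but the log2 fold change of -1.0 ± 0.056 (SE, limma adjusted p = 6.4e-06) lay at the fold threshold. It was not called without PBS replicate 2 (-0.96), PBS replicate 3 (-0.99) or cisplatin replicate 3 (-0.97), nor with voom, median-of-ratios scaling (-0.99) or quantile normalisation (-0.92). Trim32 lies within Astn2 on the other strand. Trim2 (ENSMUSG00000027993, chr3:84160439-84306877), a ligase for neurofilament light chain, was at 2.37, 2.43 and 2.36 FPKM with PBS and at 0.759, 0.567 and 0.616 FPKM with cisplatin. The groups did not overlap, with a log2 fold change of -1.04 ± 0.087 (SE, limma adjusted p = 4.4e-05). Like Trim6, it passed the filter through the PBS libraries alone and dropped out of the test when any PBS library was left out, and with quantile normalisation it was at -0.86 and was not called, while voom called it at -1.80. Trim3, its close relative, averaged 11.1 ± 0.450 FPKM with PBS and 6.70 ± 0.929 with cisplatin (SD, n = 3), a log2 fold change of -0.65.

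Outside these groups, Trim47 showed the largest change of the tested members. Trim47 (ENSMUSG00000020773, chr11:116105752-116127210), a RING ligase, was at 25.6, 23.7 and 25.5 FPKM with PBS and at 6.77, 5.74 and 6.77 FPKM with cisplatin. The PBS mean was 3.88-fold the cisplatin mean, and the log2 fold change was -1.81 ± 0.069 (SE, limma adjusted p = 1.1e-06). The gene overlaps Trim65 on the same strand over 5365 bases. Trim65 itself was at 4.11 ± 0.171 FPKM with PBS and 3.54 ± 0.0828 with cisplatin (SD, n = 3), so that the pair changed to unequal degrees. Trim7 (ENSMUSG00000040350, chr11:48826140-48852209), a partner of glycogenin, was at 4.11, 4.04 and 3.90 FPKM with PBS and at 1.10, 1.19 and 1.18 FPKM with cisplatin. Its groups did not overlap, and the log2 fold change was -1.22 ± 0.066 (SE, limma adjusted p = 5.7e-06). It overlaps the antisense gene Gm16170, and reads of the pair cannot be told apart where counting ignored strand.

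**Figure D3:**
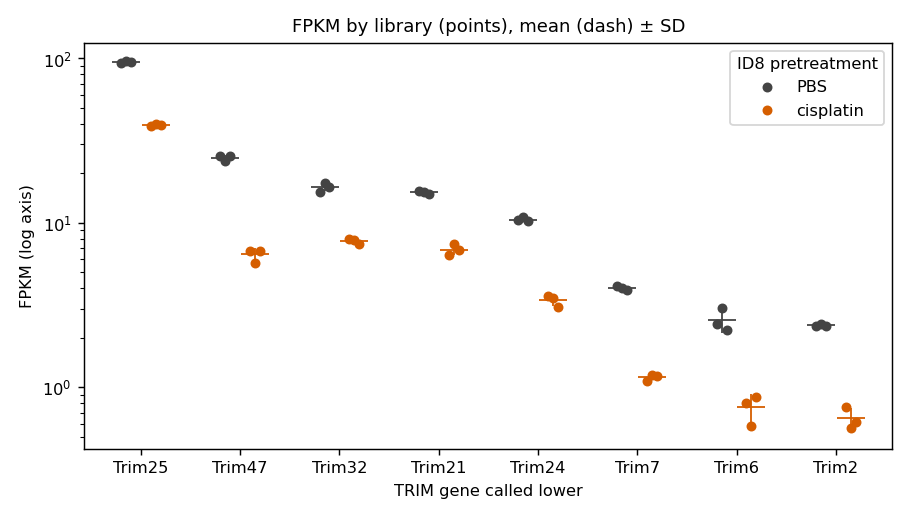
FPKM on a log axis in each library is shown for the 8 TRIM genes called lower, with the mean and SD of each group of 3 libraries. For every gene the 3 cisplatin points lie below the 3 PBS points, from Trim25 at 95.4 against 39.4 FPKM to Trim2 at 2.39 against 0.648 FPKM.

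The 8 members that were higher with cisplatin by the limma adjusted p were Trim13, Trim39, Trim11, Trim27, Trim30c, Trim28, Trim37 and Trim30b, and each of them turned below 0 under the scaling to Y-linked genes while staying above the shifted median of -0.81. Trim13, a ligase anchored in the endoplasmic reticulum, rose the most, from 6.30, 7.98 and 5.63 FPKM with PBS to 13.5, 11.8 and 12.7 FPKM with cisplatin. The groups did not overlap, and its log2 fold change of 0.85 ± 0.11 (SE, limma adjusted p = 0.00052) became 1.04 in the voom test, where it was called. Trim13 overlaps Dleu2 on the other strand and shares 14.2% of its 50-base words with Gm9359. The other membrane-anchored member, Trim59, went the opposite way, from 18.8 ± 0.953 FPKM with PBS to 11.6 ± 1.11 with cisplatin (SD, n = 3). Trim39, of the major histocompatibility region on chromosome 17, was at 3.92 ± 0.352 FPKM with PBS and 6.66 ± 0.404 with cisplatin. Trim11 and Trim37 had log2 fold changes of 0.42 and 0.28.

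Beside Trim5 and Trim33, 2 further tested members did not pass the adjusted p. Trim41, at 18.0 ± 1.56 FPKM with PBS and 18.0 ± 0.884 with cisplatin (SD, n = 3), had an interval of -0.14 to 0.14 on the log2 scale at 2 SE on either side. Trim68, at 1.20 ± 0.451 and 1.10 ± 0.321 FPKM, had a wide interval of -0.42 to 0.31. The remaining tested members, Trim46, Trim44, Trim16 and Trim35, were lower by the adjusted p with log2 fold changes of -0.41 to -0.28.

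**Figure D4:**
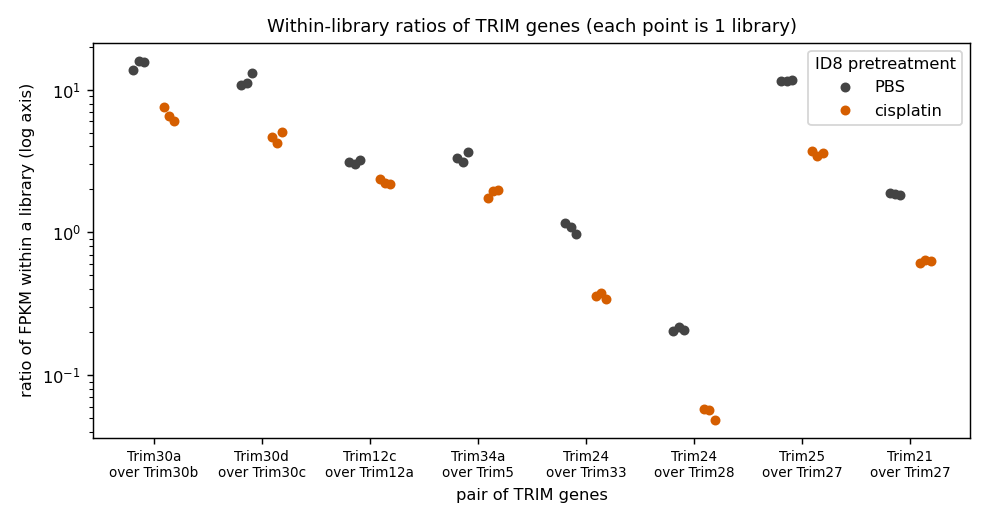
Each point is the ratio of the FPKM of a pair of TRIM genes within 1 library, on a log axis, for PBS and cisplatin. In all 8 pairs, chosen after their values had been seen, the 3 PBS libraries lie above the 3 cisplatin libraries. Mean ratios were 11.6 against 3.60 for Trim25 to Trim27 and 0.209 against 0.0544 for Trim24 to Trim28.

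The 31 members that were not tested lay at low levels. Trim42, Trim52, Trim60 and Trim80 were listed at 0 in every library, and no value of the other 27 exceeded 1.19 FPKM. That value belonged to Trim36, a microtubule-binding COS-box member, which was at 0.419, 0.384 and 0.319 FPKM with PBS and at 0.873, 1.19 and 1.09 FPKM with cisplatin. These values rested on 24 to 36 reads per library with PBS and 72 to 95 with cisplatin, and the cisplatin libraries were the higher ones. Trim69 was at 0.928, 0.748 and 0.751 FPKM with PBS and at 0.311, 0.226 and 0.449 FPKM with cisplatin, the opposite order, on 7 to 31 reads per library. Of the 8 COS-box members, which bind microtubules, only Trim46 was expressed highly enough to be tested. The muscle members Trim54, Trim55 and Trim63 did not exceed 0.203 FPKM.

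Genes that work with TRIM proteins were examined in the same fit. Of 6 TRIM proteins whose symbols the rule did not cover, 4 were tested. Of these, 1 (25.0%) was called lower, against 11.3% of all tested genes. By the adjusted p, 3 (75.0%) were lower and 1 was higher, where 35.1% and 32.9% of all tested genes were. Mid2, a microtubule-binding member, averaged 3.67 ± 0.584 FPKM with PBS and 0.651 ± 0.0362 with cisplatin (SD, n = 3) and was called lower, with a log2 fold change of -1.49. It too passed the filter through the PBS libraries alone, and no gene of this list was called in the limma test when any PBS library was left out. Mid1 was at -0.92 and Pml, the organiser of PML nuclear bodies, at -0.53, both lower by the limma adjusted p. Pml averaged 45.0 ± 2.27 FPKM with PBS and 30.9 ± 0.436 with cisplatin. Mefv, which encodes pyrin, was higher at 0.47.

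Of 18 sensors, adaptors and kinases that TRIM ligases act on, 4 were called lower and 0 higher, and by the limma adjusted p, or the unadjusted p in brackets, 8 (9) were lower and 5 (5) higher. The 4 called lower are 22.2% of the list, against 11.3% of all tested genes, while the 8 lower by the adjusted p are 44.4%, against 35.1%. Of all tested genes, 32.9% were higher by the adjusted p and 4.67% were called higher. The largest changes were those of Irf7, the interferon-inducible regulator of interferon genes, and Ifih1, which encodes MDA5. Irf7 averaged 101.9 ± 5.38 FPKM with PBS and 16.1 ± 0.324 with cisplatin, a log2 fold change of -2.59. Ifih1, the target of Trim65, was at 26.4 ± 0.844 FPKM with PBS and 4.62 ± 0.398 with cisplatin, a log2 fold change of -2.29. Ddx58, the RIG-I gene and the target of Trim25, fell by 1.93 and Tab1 by 1.13 on the log2 scale, completing the 4 called genes.

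Of the ubiquitin-conjugating enzymes and the segregase Vcp, 7 of 8 were tested and Ube2l6 alone was called lower (14.3%, against 11.3% of all tested genes), from 66.5 ± 3.23 FPKM with PBS to 14.6 ± 0.787 with cisplatin (SD, n = 3), a log2 fold change of -2.12. Ube2l6 is the conjugating enzyme for the ubiquitin-like protein ISG15. Ube2w was next at -0.28, and the general enzymes Ube2d2a and Ube2n had log2 fold changes of 0.01 and 0.06 and did not pass the adjusted p. Among the 8 partners of Trim28 in gene silencing, none was called in the limma or the voom test, while by the limma adjusted p 2 were lower and 3 higher, and by the unadjusted p 2 and 4, where 35.1% of all tested genes were lower and 32.9% higher by the adjusted p. Cbx5, a heterochromatin protein, was closest to a call, at 40.7 ± 2.43 FPKM with PBS and 20.1 ± 0.210 with cisplatin, a log2 fold change of -0.98. Cbx3 followed at -0.30, and Setdb1, the histone methyltransferase recruited by Trim28, was at 0.28.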

How the data were processed

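The deposited table gave FPKM for 54532 genes in each of 6 libraries of poly-T selected RNA, with gene lengths and coordinates. The submitters' processing notes list fastp, HISAT2 2.0.5, featureCounts 1.5.0-p3 and build mm10, and the methods name LifeScope. Strand use and the handling of multiply mapped reads are not given in the sources used here. All values of the authors' FPKM columns were whole multiples of 1 read per gene length (100% within 0.05 of a read, for values under 200 reads), which gave the read counts. Counting error is thus small for abundant genes and large for members near the filter (41 reads per library at the fewest among tested members). The read total behind the FPKM scaling was 103.7% to 104.1% of the recovered reads in the cisplatin libraries. In the PBS libraries it was 97.4% to 98.7%, for a reason not given. With voom on the recovered reads, the median log2 fold change over all tested genes was 0.085.

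Genes with at least 1 FPKM in at least 3 of 6 libraries (13441) were tested on log2(FPKM + 1) with limma 3.58.1 in R 4.3.3 (lmFit, eBayes with trend), group as the only term, Benjamini-Hochberg adjusted over all tested genes. This scale understates changes of low genes. Calls required both an adjusted p below 0.05 and an absolute log2 fold change of 1 or more. The procedure was tested on simulated data. Gene overlaps and shared 50-base words came from GENCODE M21, where 66 of the 68 members had the same coordinates, and promoters from RefSeq. Values in every library are given for called members, tested members of the chromosome 7 cluster and the 5 most abundant members. Of the other members, up to 3 per subgroup with the largest change were to be valued, and of each pathway list the 2 largest changes and Pml. Trim36, Trim69, Trim13, the pairs for ratios, other valued genes and the windows of uncalled members were chosen after values were seen. The members and lists were chosen with earlier results of these data known.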

Additional observations from a re-analysis of the deposited data

How the results depend on the processing

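Results were recomputed under 17 other settings, 6 of which left out 1 library each. These moved the count of members called lower from 8 to 24 (64.9%) with libraries scaled to the Y-linked genes, where 37.5% of all tested genes were called lower, 25 by adjusted p alone, 5 (17.2%, all genes 12.2%) with a filter at 5 FPKM, where Trim2, Trim6 and Trim7 were not tested, and 4 with quantile normalisation, and to 5 to 9 without 1 library. Voom and median-of-ratios scaling gave 7, without Trim32. Members called higher went from 0 to 1 with voom and 8 by adjusted p alone, and stayed at 0 without any 1 library. The family median was -1.33 with Y-linked scaling (all genes -0.81), -0.36 with voom (all genes 0.085) and -0.035 with no filter (64 members, all genes 0.013). It was -0.35 with quantile normalisation (all genes 0.10) and -0.42 to -0.38 without 1 library.

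Against that 37.5%, Y-linked scaling called 6 of 9 members lower in the chromosome 7 cluster, 7 of 9 in the signalling list, 1 of 1 COS-box, 1 of 2 membrane-anchored and 5 of 10 other members, and 3 of 4 TRIM proteins under other names, 9 of 18 signalling proteins, 2 of 7 conjugating enzymes and 2 of 8 Trim28 partners. Adjusted p alone gave 6, 8, 1, 1, 5, 3, 8, 2 and 2 lower in the same order, and 1, 5, 2 and 3 higher in the last 4 lists. With either setting the PHD-bromodomain members stayed at 1 of 3, and the NHL and filamin members went from 2 to 3 of 3. The 5 FPKM filter left 0 called in the cluster, 1 with NHL or filamin repeats, 1 other member and 0 under other names. Quantile normalisation left 0 in the cluster, 1 signalling (Trim25, without Trim21) and 0 NHL or filamin members, while voom and median-of-ratios scaling left 1 NHL or filamin member each. TPM rescaling and a pseudocount of 0.1 gave 2 under other names and 1 Trim28 partner, and voom 2 under other names. Lower calls over all 13441 tested genes also rose, from 1514 to 1882 with TPM rescaling, 1981 with that pseudocount and 1862 with voom. Without 1 library the cluster had 0 to 2, the NHL and filamin members 0 to 2, those under other names 0 to 1 and the Trim28 partners 0 to 1.

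Direction reversed with Y-linked scaling for Trim28 (-0.65), Trim41 (-0.92), Trim11 (-0.50), Trim13 (-0.027), Trim27 (-0.51), Trim30b (-0.65), Trim37 (-0.56), Trim39 (-0.18) and Trim30c (-0.45). The members that did not pass the test also reversed, Trim41 with TPM rescaling (-0.0061) and from -0.058 to 0.061 without 1 library, Trim33 with voom (0.040) and quantile normalisation (0.059) and from -0.10 to 0.0037 without 1 library, Trim5 with voom (0.0094) and quantile normalisation (0.045), and Trim68 with quantile normalisation (0.10) and from -0.21 to 0.014 without 1 library. Beyond fewer genes or libraries tested, the cause was not tested.

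Replicate numbers are shared between groups, but correlations of same-numbered deviations were -0.10, -0.09 and -0.02, so no pairing was seen in these values. Whether same-numbered libraries shared a culture or animal is not stated. A fit with the replicate block still called 8 members lower and 0 higher. Few reads limit Trim68 and Trim6 among the tested members, and most untested ones.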
